A study of Sus scrofa with 41 samples.

Results

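This section covers MTFR1 (mitochondrial fission regulator 1) and 6 genes whose proteins carry out the fission and fusion of mitochondria, namely MFN1, MFN2, OPA1, DNM1L, FIS1 and MFF, in the psoas major muscle of 41 uncastrated male pigs. The genes were taken by symbol from a fixed list of 7 names. Of these, 6 were matched to a row among the 25880 genes of the count files, while DNM1L, the dynamin-related GTPase that constricts mitochondria, is not analysed here. MTFR1 entered the list because its level moved with the feed conversion ratio in an earlier analysis of the same pigs, so its relation to that ratio is given as a description without a test, whereas the other genes entered for the function of their proteins.

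The pigs were purebred Danbred Duroc (n = 13) or Danbred Landrace (n = 28), and all were fed ad libitum at a single breeding station and sampled right after slaughter. The feed conversion ratio (FCR) is read here as feed eaten per weight gained. This is the usual sense of the term and the one in the introduction of the study, although its methods word it as growth over feed. Under this reading a high value marks a pig that needed more feed. It ran from 1.83 to 2.18 with a median of 1.94 in the Duroc pigs and from 1.92 to 2.25 with a median of 2.10 in the Landrace pigs. Age at sampling ran from 131 to 156 days in Duroc and from 147 to 166 days in Landrace. There was no treatment, and the groups shared tissue, sex and feeding. The pigs came in 5 slaughter batches of 1, 15, 9, 5 and 11 pigs. Each pig gave 1 library, so the spread between samples is that between pigs.

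Mitochondria in muscle form a network that is remodelled by division and by joining. In division, DNM1L is brought to the outer membrane by adaptors such as MFF and FIS1, and wraps around the organelle. In joining, MFN1 and MFN2, known as mitofusins, tether and merge the outer membranes, and OPA1 merges the inner membranes and holds the folds of the inner membrane (cristae) in shape. MTFR1 is a mitochondrial protein described as a promoter of fission.

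Between 22188911 and 25954816 read pairs per pig were counted on genes. Of all pairs, 19.1 to 30.1% fell on no single gene. RNA integrity was scored by the RNA integrity number (RIN), on a scale where intact RNA scores high, and ran from 7.0 to 8.8 in Duroc and from 6.5 to 8.3 in Landrace. Pigs with a RIN of 7 or below were Landrace replicate 1 (RIN 6.5), Landrace replicate 27 (RIN 6.6) and Duroc replicate 10 (RIN 7.0). Their libraries had 23876645, 22188911 and 22588717 counts, the lowest total of each breed among them, and 11.2%, 16.2% and 14.9% of their pairs fell outside any gene, against a median of 8.83% over all pigs. For the 6 genes and for the counts of the wider lists, results that rest on these 3 libraries are given with and without them. Single genes of the wider lists are given with all pigs unless stated, and cell type markers with all pigs only. The muscle markers ACTA1, CKM and DES, the 3 of 7 listed that were matched, summed to between 101575 and 187525 CPM (counts scaled to a common library total) in the 41 pigs, and none was at 0.

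The levels of the 6 genes were described first. Values are CPM after TMM scaling, which corrects each library for its composition. They can be compared between pigs for a given gene, but not between genes, since no gene length was used. In a bulk muscle sample, fewer cells of a type and less RNA per cell cannot be told apart.

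MTFR1 (ENSSSCG00000006219, Sscrofa11.1 chr4:68902854-68969998) was the gene with the fewest reads, at 19 to 92 counts per pig and a median of 48. Its level in Duroc had a lowest, median and highest value of 1.20, 2.05 and 3.19 CPM, with a mean of 2.10 ± 0.565 (SD, n = 13). In Landrace the same values were 1.32, 1.94 and 3.24 CPM, with a mean of 1.95 ± 0.488 (SD, n = 28). The breeds overlapped over nearly their whole range. Over all 41 pigs the coefficient of variation was 25.6%, and counting error alone gives 13.9% at this depth, so MTFR1 was the member most limited by depth.

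Of the outer membrane fusion genes, MFN1 (ENSSSCG00000039285, chr13:117404637-117441750) ran from 14.5 to 31.0 CPM in Duroc with a median of 28.0 and a mean of 26.7 ± 4.42 (SD, n = 13). In Landrace MFN1 ran from 14.3 to 33.1 CPM with a median of 27.5 and a mean of 26.8 ± 4.21 (SD, n = 28). MFN2 (ENSSSCG00000003434, chr6:72026512-72056439) ran from 63.3 to 162 CPM in Duroc, with a median of 127 and a mean of 123 ± 23.9 (SD, n = 13). The lowest Duroc pig for both genes was replicate 10, with the next at 23.1 CPM for MFN1 and 102 CPM for MFN2, and it is described with RNA integrity further on. MFN2 in Landrace ran from 60.9 to 165 CPM, with a median of 120 and a mean of 118 ± 18.2 (SD, n = 28).

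The inner membrane fusion gene OPA1 (ENSSSCG00000011822, chr13:130624771-130718345) had the smallest spread of the 6, with a coefficient of variation of 11.8%. It ran from 18.9 to 26.5 CPM in Duroc, with a median of 24.2 and a mean of 23.6 ± 2.47 (SD, n = 13), and from 16.5 to 32.8 CPM in Landrace, with a median of 23.6 and a mean of 23.3 ± 2.93 (SD, n = 28). Its Duroc values lay inside the Landrace range.

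Of the adaptors, FIS1 (ENSSSCG00000038938, chr3:8938250-8942102) ran from 4.31 to 7.17 CPM in Duroc, with a median of 5.79 and a mean of 5.85 ± 0.912 (SD, n = 13), and from 3.45 to 8.19 CPM in Landrace, with a median of 5.78 and a mean of 5.71 ± 1.02 (SD, n = 28). FIS1 overlaps a long non-coding RNA gene (LOC102164200) in the RefSeq annotation, and with unstranded counting the reads of the pair cannot be told apart. MFF (ENSSSCG00000031572, chr15:128768441-128799355) ran from 27.7 to 49.7 CPM in Duroc, with a median of 33.5 and a mean of 35.4 ± 5.94 (SD, n = 13), and from 29.6 to 41.5 CPM in Landrace, with a median of 33.0 and a mean of 33.7 ± 3.36 (SD, n = 28). The MFF values of the breeds overlapped, and the 2 highest were from Duroc pigs.

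**Figure D1:**
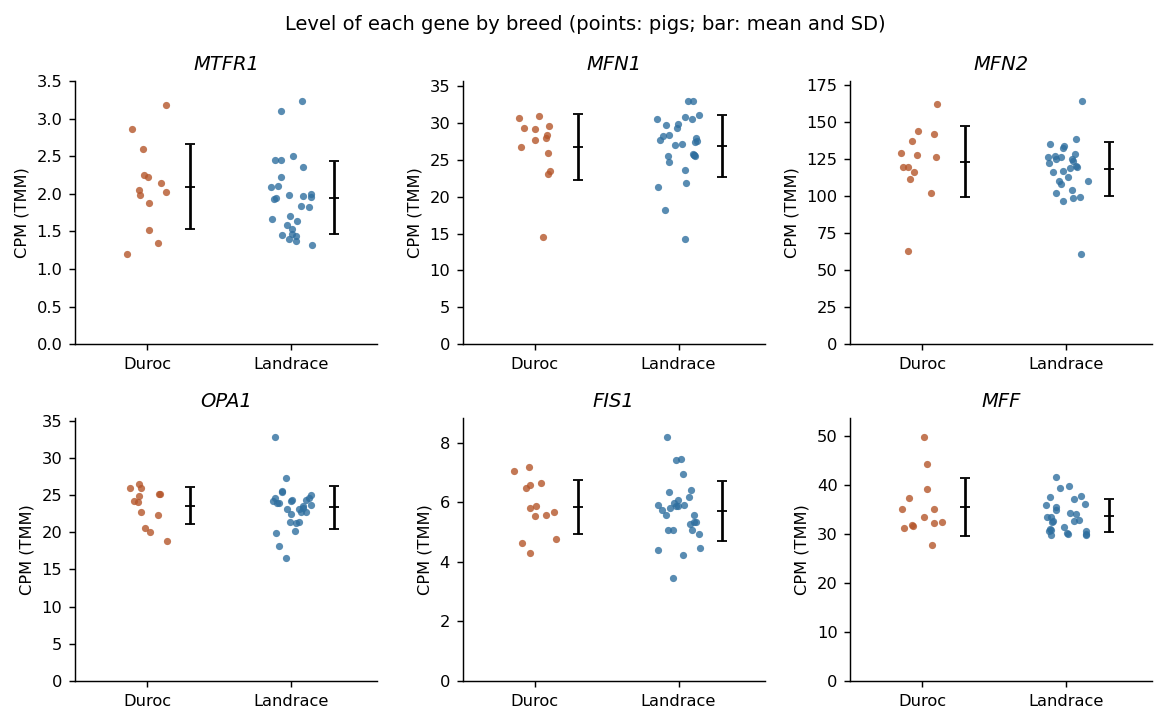
Level of each gene in CPM after TMM scaling (vertical axis, from 0) in the Duroc (n = 13) and Landrace (n = 28) pigs, with 1 point per pig and the mean and SD beside them. For each gene the breeds overlap, and the means of MTFR1 are 2.10 CPM in Duroc and 1.95 CPM in Landrace.

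The first comparison was between the breeds. The model of the study, with FCR, RIN, age, breed and batch, was fitted to all genes with the quasi-likelihood test of edgeR, and a false discovery rate (FDR) under 0.1 over all 11146 genes tested was taken as the threshold. MTFR1 passed it, at -0.38 on the log2 scale (Landrace minus Duroc, SE 0.152, 95% interval -0.69 to -0.07, edgeR FDR 0.0649), which is a level of 0.770 times that of Duroc at equal FCR, RIN, age and batch. The other 5 genes did not pass, with coefficients between -0.11 for MFN2 and 0.06 for FIS1 and FDR from 0.579 to 0.892. Over all genes 33.1% passed, with 17.5% lower and 15.6% higher in Landrace, so 1 of 6 is no more than the background.

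The breed coefficient of MTFR1 depended on the other terms of the model. Without covariates the mean levels differed by only -0.11 on the log2 scale. The Landrace pigs had the higher FCR, MTFR1 was chosen for its FCR coefficient, and the 2 coefficients come from the same fit, where their estimates correlate at -0.263. With FCR left out of the model the breed coefficient of MTFR1 was -0.24 (SE 0.178, edgeR FDR 0.330). It also missed the threshold without Duroc replicate 3 (FDR 0.150) and without Landrace replicate 8, 18 or 20 (FDR 0.102, 0.105 and 0.123).

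MFN2 did not pass for breed with all pigs, at -0.11 (edgeR FDR 0.579), and passed without the 3 pigs of low RIN, at -0.24 (SE 0.0870, FDR 0.0444). Within the 3 batches that held 6 or more pigs, coefficients of a least squares fit with breed, FCR and RIN are given as values without a test. For MTFR1 the breed coefficient was -0.45 in batch 2 (3 Duroc and 12 Landrace), -1.08 in batch 3 (2 and 7) and -0.08 in batch 5 (4 and 7). For MFN2 it was -0.47, 0.02 and 0.23 in the same batches, so its sign was not the same across batches.

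Markers of other cell types also moved with breed in the same fit. The endothelial genes PECAM1 and CDH5 were both lower in Landrace, at -1.01 and -0.95 (edgeR FDR 0.00303 and 3.68e-05), and these 2 of 3 listed that were matched summed to 44.4 to 134 CPM in Duroc and 25.1 to 110 CPM in Landrace. Of the slow fibre genes, TNNI1 was lower in Landrace at -0.79 (FDR 0.0514) and the other 4 tested did not pass, with sums of 4205 to 13958 CPM in Duroc and 1353 to 16742 CPM in Landrace. ADIPOQ, a gene of fat cells, was lower at -2.67 (FDR 0.0451), whereas FABP4, another gene of fat cells, did not pass (0.25, FDR 0.576). The 4 adipocyte genes summed to 9.85 to 106 CPM in Duroc (median 21.6) and 10.2 to 138 CPM in Landrace (median 34.3), so the median of the sum, which was not tested, was the higher in Landrace. MYH6, a myosin listed for heart muscle, was lower at -0.75 (FDR 0.0871), whereas ACTA1 and CKM were higher at 0.38 and 0.24 (FDR 0.0115 and 0.0545). None of 4 leukocyte and none of 3 fibroblast genes passed. Their part in the MTFR1 value was not tested.

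The second comparison was with RNA integrity, the term for which most of the 6 genes passed. MFN1 was higher in pigs with a higher RIN, by 0.39 on the log2 scale per unit of RIN (SE 0.0759, edgeR FDR 7.05e-05), a level 1.31 times as high. MFN2 was higher by 0.23 (SE 0.106, FDR 0.0783), and the adaptor MFF was lower, at -0.19 (SE 0.0514, FDR 0.00284). OPA1 at 0.13 (FDR 0.114), FIS1 at -0.16 (FDR 0.173) and MTFR1 at -0.01 (FDR 0.960) did not pass. Thus 3 of 6 passed, with 2 higher and 1 lower. Over all genes tested 51.8% passed, with 23.9% higher and 27.9% lower, so this share is near the background.

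**Figure D2:**
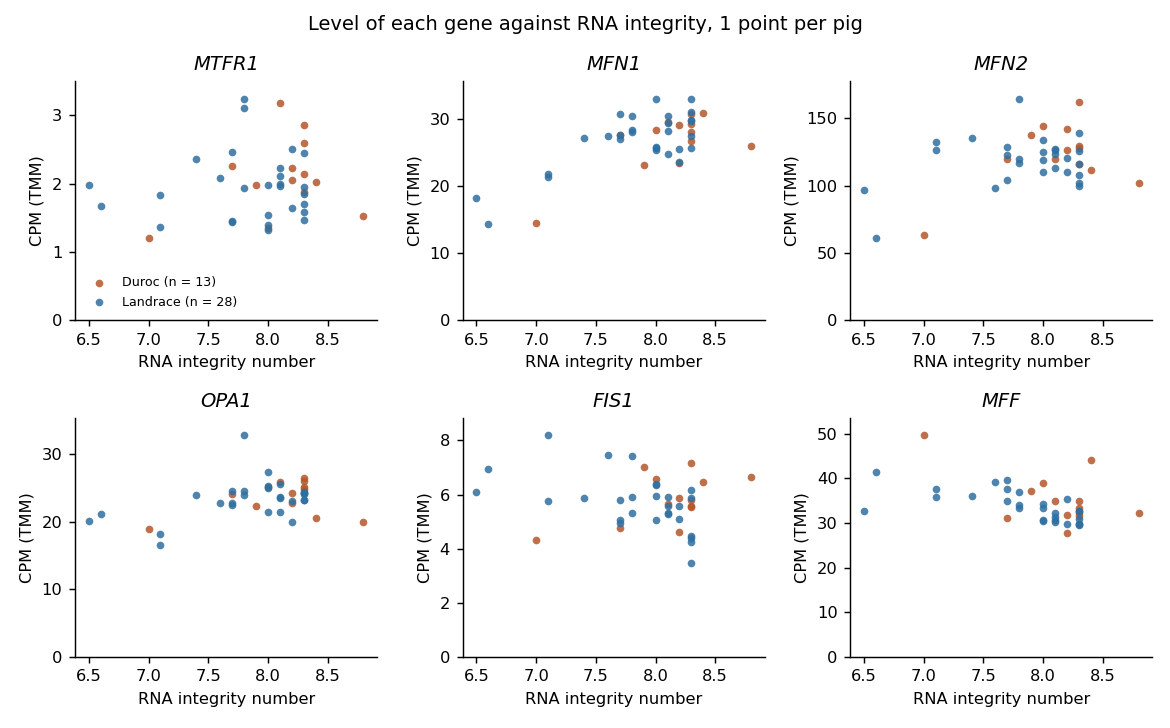
Level of each gene in CPM (vertical axis, from 0) against the RIN of the sample (horizontal axis), with 1 point per pig and the breeds in colour. In the MFN1 and MFN2 panels the 3 pigs with a RIN of 7 or below have the 3 lowest levels of 41.

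Much of the relation for the mitofusins rested on the 3 pigs of low RIN. Landrace replicate 1, Landrace replicate 27 and Duroc replicate 10 had 18.2, 14.3 and 14.5 CPM of MFN1, while the other 38 pigs had from 21.3 to 33.1 CPM with a median of 27.8. For MFN2 they had 97.0, 60.9 and 63.3 CPM, and the other 38 pigs had from 98.6 to 165 CPM with a median of 123. For both mitofusins the low-RIN pigs were thus the lowest 3 of 41, with no overlap.

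The other genes did not separate these pigs in the same way. OPA1 was at 20.2, 21.2 and 18.9 CPM in them, inside the 16.5 to 32.8 CPM of the other pigs. FIS1 was at 6.09, 6.94 and 4.31 CPM, inside 3.45 to 8.19 CPM. MFF was at 32.7, 41.5 and 49.7 CPM, and the last of these was the highest of all 41 pigs. MTFR1 was at 1.97, 1.67 and 1.20 CPM, and the last was the lowest of all.

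Without these 3 pigs the mitofusin results did not hold. The MFN1 coefficient was 0.15 (SE 0.0966, edgeR FDR 0.303), and that of MFN2 turned to -0.16 (SE 0.103, FDR 0.316). MFF was the only one of the 6 that still passed, at -0.21 (SE 0.0726, FDR 0.0624), with 17.3% of all genes passing in these 38 pigs. FIS1 was at -0.33 (SE 0.142, FDR 0.123) in the same 38 pigs, and at -0.25 (FDR 0.0464) with Duroc replicate 10 alone left out. With the 2 pigs of RIN below 7 left out, MFN1 still passed at 0.30 (FDR 0.0207), while MFN2 was at 0.10 (FDR 0.608). MFN2 also missed the threshold when Landrace replicate 1, Landrace replicate 27 or Duroc replicate 10 was left out singly.

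The sign of the MFF coefficient depended on the scaling. With library size only in place of TMM, the median RIN coefficient of all genes moved from -0.01 to 0.30, and MFF was at 0.13 (edgeR FDR 0.0489), MTFR1 at 0.29, OPA1 at 0.44, MFN2 at 0.52 and MFN1 at 0.70. Relative to the median of all genes, MFF was lower under both scalings and both mitofusins were higher.

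**Figure D3:**
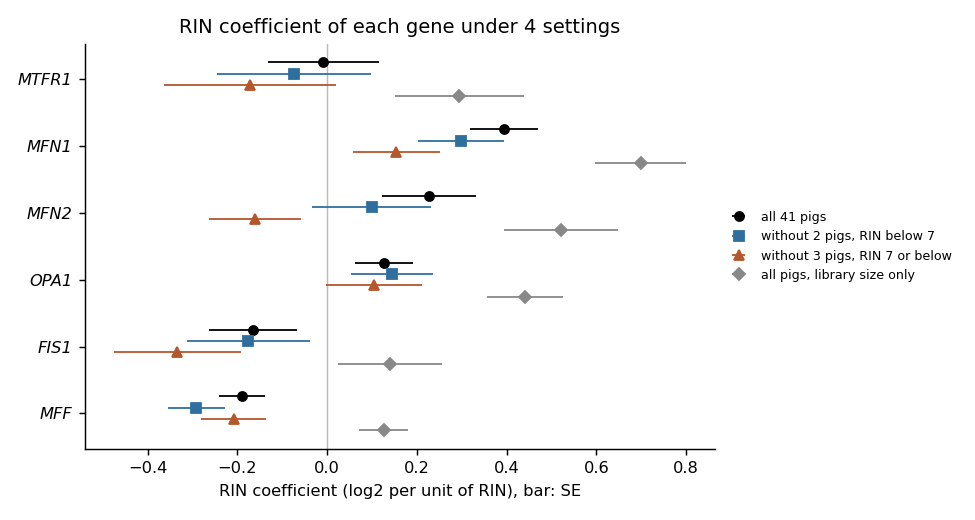
RIN coefficient of each gene (horizontal axis, log2 per unit of RIN, with SE as bars) with all 41 pigs, without the 2 or the 3 pigs of lowest RIN, and with library size only. MFN2 goes from 0.23 with all pigs to -0.16 without 3 pigs, and with library size only all 6 genes lie above 0.

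Within the breeds, none of the 6 genes passed for RIN in the 13 Duroc pigs, where the fit left 5 residual degrees of freedom and 0% of 10509 genes passed (1824 had an unadjusted p under 0.05). The Duroc coefficients were 0.69 for MFN1, 0.74 for MFN2, 0.55 for FIS1 and -0.22 for MFF. Without Duroc replicate 10 they were 0.02 for MFN1, -0.30 for MFN2 and -0.07 for MFF, and 0.41 for FIS1 (SE 0.376), with FDR of 1.00 for each and 0% of 10745 genes passing (207 had an unadjusted p under 0.05). The coefficients of the mitofusins in Duroc thus rested on that pig. In the 28 Landrace pigs 42.9% of genes passed, and among the 6 these were MFN1 at 0.37 (SE 0.0837, edgeR FDR 0.00136) and FIS1 at -0.23 (SE 0.103, FDR 0.0885). Without Landrace replicates 1 and 27, none of the 6 passed, with MFN1 at 0.16 (FDR 0.422) and FIS1 at -0.35 (FDR 0.249), and 7.73% of genes passed.

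The difference between the breeds in the RIN coefficient was tested by the product of RIN and breed. It passed for none of the 6 genes and for 0% of all genes (541 had an unadjusted p under 0.05). FIS1 had the smallest p of the 6 (difference -0.54 Landrace minus Duroc, unadjusted p = 0.0122, edgeR FDR 0.942). Without the 3 pigs of low RIN the FIS1 difference was -0.49 (unadjusted p = 0.129, edgeR FDR 0.999), and the smallest p was that of OPA1 (difference 0.47, unadjusted p = 0.0476, FDR 0.999). Within batches, the RIN coefficient of MFN1 was 0.34, 0.24 and 0.57 in batches 2, 3 and 5, that of MFN2 was 0.10, 0.26 and 0.56, and that of MFF was -0.09, -0.54 and -0.18, again as values without a test. Batch 3 held no pig of low RIN, so the sign of MFN2 there was not that of the joint fit without the 3 pigs.

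Slow fibre genes moved with RIN as well. All 5 that were tested (TNNT1, TNNI1, TNNC1, MYL2 and MYL3) were lower with higher RIN, with a median coefficient of -0.73. Of the other markers, the fibroblast gene COL3A1 was higher at 0.93, and the leukocyte gene CORO1A and the muscle gene DES were lower at -0.53 and -0.35 (edgeR FDR 0.00868, 0.0540 and 0.000954). The remaining 2 fibroblast, 3 leukocyte, 2 muscle, 2 adipocyte and 2 endothelial genes and MYH6 did not pass. Their part in the RIN results was not tested.

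The third comparison was with feed conversion. For MTFR1, whose selection allows only a description, the FCR coefficient was 0.25 on the log2 scale per 0.1 of FCR (SE 0.0594), a level 1.19 times as high for each 0.1. Because the gene was picked on this contrast, the coefficient may be too large, and its SE takes no account of the selection. The sign is that for the ratio as the labels give it, and what it means in terms of feed needed rests on the reading of the ratio given at the start. The 3 Duroc pigs of lowest FCR, at 1.83, 1.85 and 1.89, had 1.35, 1.20 and 1.88 CPM of MTFR1. The 3 Duroc pigs of highest FCR, at 2.08, 2.11 and 2.18, had 2.86, 2.05 and 2.26 CPM. All 3 of the latter were above all 3 of the former.

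In Landrace, the pigs with an FCR of 1.92, 1.98 and 1.98 had 1.32, 1.59 and 1.70 CPM of MTFR1, from 35 to 47 counts. Those with an FCR of 2.22, 2.22 and 2.25 had 3.10, 3.24 and 2.09 CPM, from 47 to 92 counts. Between these ends the values of single pigs crossed over.

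**Figure D4:**
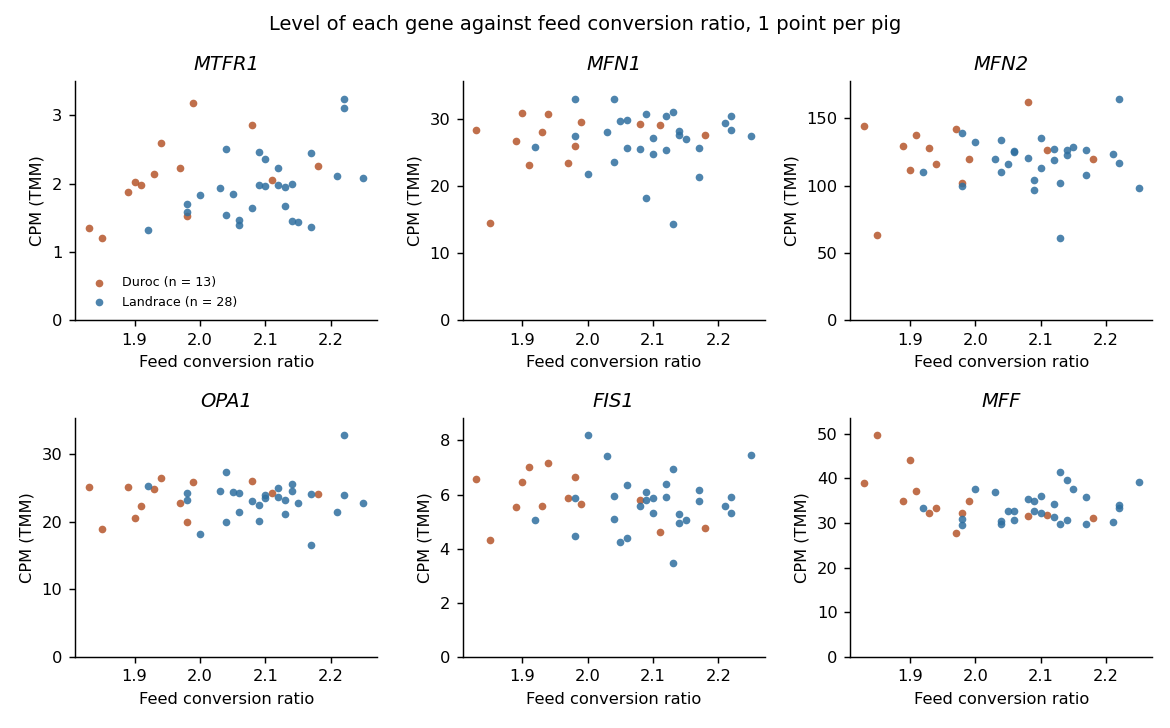
Level of each gene in CPM (vertical axis, from 0) against the FCR of the pig (horizontal axis), with 1 point per pig and the breeds in colour. MTFR1 is at 1.20 to 1.88 CPM in the 3 Duroc pigs of lowest FCR and at 2.05 to 2.86 CPM in the 3 of highest FCR.

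Fitted within breed, the coefficient of MTFR1 was 0.26 (SE 0.101) in Duroc and 0.24 (SE 0.0843) in Landrace, and without the pig of low RIN it was 0.19 in Duroc. In the joint fit, leaving out a single pig gave from 0.23 to 0.27, and leaving out the 3 pigs of low RIN gave 0.22 (SE 0.0645). Within batches 2, 3 and 5 the coefficient of the least squares fit was 0.26, 0.38 and 0.15. These values describe the contrast for which the gene was picked.

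None of the 5 genes that were not chosen on FCR passed the test. Per 0.1 of FCR, MFN1 was at 0.06 (95% interval -0.01 to 0.13, edgeR FDR 0.628) and MFN2 at 0.03 (-0.07 to 0.13, FDR 0.862). OPA1 was at 0.03 (-0.04 to 0.09, FDR 0.807), FIS1 at -0.001 (-0.10 to 0.10, FDR 0.998) and MFF at -0.03 (-0.08 to 0.02, FDR 0.713). The intervals leave room for changes up to 1.10-fold per 0.1 of FCR for MFN1 and MFN2.

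The background of this test was 0% in edgeR, with 968 of 11146 genes at an unadjusted p under 0.05. Within breeds, the share was 0% in Duroc (564 genes under 0.05) and 0% in Landrace (606 genes). DESeq2 passed 5 genes in the joint fit, 10 in Duroc and 4 in Landrace, none of the 5 among them, and limma passed 0. The product of FCR and breed passed for 0% of genes (582 under 0.05). Of the 5 genes not chosen on FCR, MFF had the smallest p for this product (difference 0.13 Landrace minus Duroc, unadjusted p = 0.00825, edgeR FDR 0.922). In the separate fits within each breed, MFF was at -0.08 in Duroc and 0.03 in Landrace per 0.1 of FCR.

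**Figure D5:**
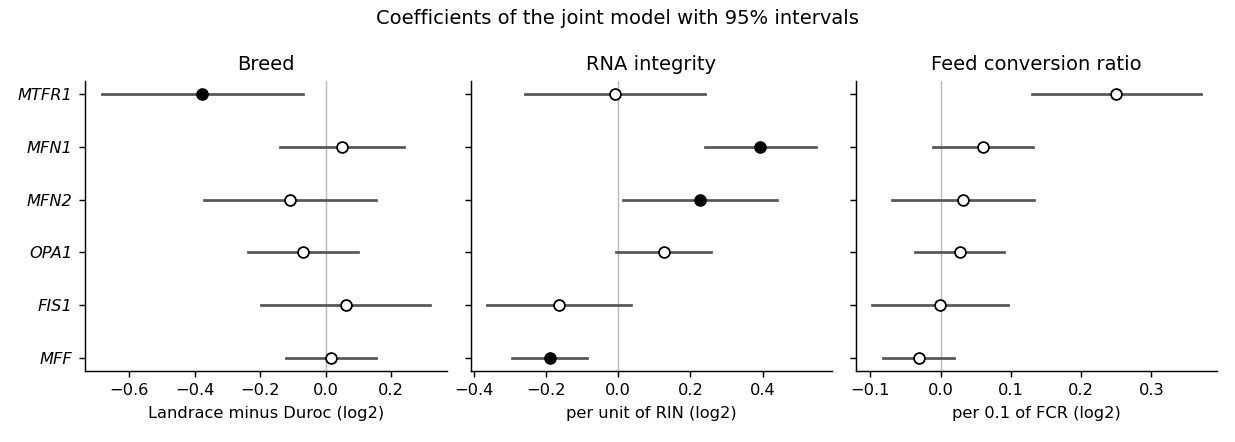
Coefficients of the joint edgeR model (horizontal axes, log2) for breed, RIN and FCR, with 95% intervals and filled points where the FDR is under 0.1. In the FCR panel no point is filled, and the intervals of the 5 genes not chosen on FCR include 0. MTFR1 at 0.25 is a description of the contrast it was chosen on, so its interval there is not a test.

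Age and batch were the remaining terms. Age passed for none of the 6 genes, with 1.76% of all genes passing. Batch passed for MFF (edgeR FDR 0.0548, F test), and for none of the other 5, against 24.1% of all genes. MFF had medians of 31.6, 33.5, 32.3 and 36.0 CPM in batches 2 to 5, and the single pig of batch 1, a Duroc, had 44.1 CPM. Without the 3 pigs of low RIN the batch term of MFF also passed (FDR 0.0375). Batches 2 and 5 held all 3 of those pigs.

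How the 6 genes varied together was examined on the residuals of log2 CPM after RIN, age, breed and batch, over 41 pigs and 15 pairs with permutation p-values. The single pig of batch 1 is fitted exactly by its batch term and adds nothing. The permutations take no account of the fitted terms, so the p-values may be too small. The pair with the highest Pearson r was MFN1 and MFN2 (r = 0.521, permutation p = 0.00040, adjusted p = 0.0060, rho = 0.337, p = 0.0318, adjusted p = 0.119). It fell to r = 0.294 without the 2 pigs farthest from the median (adjusted p = 0.210) and to r = 0.295 without the 3 pigs of low RIN, so it rests on those pigs. In batches 2, 3 and 5 it was -0.029, 0.122 and 0.828.

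MFN1 and OPA1, the outer and inner membrane fusion genes, had r = 0.468 (permutation p = 0.00196, adjusted p = 0.0147, rho = 0.445, p = 0.0040, adjusted p = 0.0600). This pair stood without the 2 farthest pigs (r = 0.512, adjusted p = 0.0123) and without the 3 pigs of low RIN (r = 0.512, adjusted p = 0.0139). It was 0.862 within Duroc (adjusted p = 0.00405) and 0.299 within Landrace (adjusted p = 0.426), and 0.265, 0.730 and 0.293 in batches 2, 3 and 5. The difference between these values was not tested.

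MTFR1 varied with MFN1 (r = 0.398, permutation p = 0.00980, adjusted p = 0.0399, rho = 0.339, p = 0.0300, adjusted p = 0.119) and with OPA1 (r = 0.395, permutation p = 0.0106, adjusted p = 0.0399, rho = 0.353, p = 0.0246, adjusted p = 0.119). Neither passed without the 2 farthest pigs (r = 0.380 and 0.367, adjusted p = 0.105 for both). The same held without the 3 pigs of low RIN (r = 0.348 and 0.364, adjusted p = 0.169 for both). Within Landrace neither passed (adjusted p = 0.426 and 0.346). Within Duroc the pair with MFN1 passed (r = 0.663, adjusted p = 0.0663) and that with OPA1 did not (r = 0.523, adjusted p = 0.143). FCR, on which MTFR1 was chosen, was not taken out of these residuals. In batch 2 they were at 0.120 and -0.215, in batch 3 at 0.775 and 0.746 and in batch 5 at 0.429 and 0.447. The remaining 11 pairs did not pass, with r from -0.321 for MFN2 and MFF to 0.328 for MFN2 and FIS1.

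The genes nearest to each of the 6 are given as a description. Over 10723 other genes, the highest rank correlations to MTFR1 on the same residuals were those of CEP120 (rho = 0.671), NCOA2 (0.661), MYNN (0.657), SCFD2 (0.645) and BCLAF3 (0.645). The gene nearest to MFN1 was PJA2 (0.848), and nearest to MFN2 was IDH3A (0.892), a subunit of an enzyme of the citric acid cycle. TRMT1L was nearest to OPA1 (0.755), and ZFAND6 to MFF (0.770). Nearest to FIS1 was PINK1 (0.711), a kinase that marks damaged mitochondria for removal. These are descriptions over pigs that share libraries and scaling, and 7.38% and 6.48% of genes had a rho to MTFR1 as high as that of MFN1 (0.339) and OPA1 (0.353).

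The wider machinery of mitochondrial dynamics was taken from lists of 50 symbols, of which 40 were matched and 37 passed the low-count filter (MTFR2, PLD6 and MIGA1 did not). For breed, 3 were higher and 4 lower in Landrace and 30 did not pass, so that 18.9% passed against 33.1% of all genes, with a median coefficient of -0.05 against -0.002. Besides MTFR1, the fission genes MTFP1 and GDAP1 were at -0.61 and 0.46 (edgeR FDR 0.0238 and 0.0782). MIGA2, which acts in outer membrane fusion, had the largest difference at -0.97 (FDR 2.87e-05), and STOML2, a scaffold of the inner membrane, was at 0.21 (FDR 0.0123). The cristae organiser IMMT was at -0.20 (FDR 0.0743), and the ubiquitin ligase MARCHF5 was at 0.16 (FDR 0.0806) but at -0.02 with library size only. None of the 3 transport genes passed. Without the 3 pigs of low RIN 11 of 37 passed, or 29.7% against 32.4% of all genes, with 6 of the 7 among them. With library size only, 0 were higher and 18 lower, or 48.6% against 37.1% of all genes, with 4 of the 7 among them. Besides MARCHF5, the calls of STOML2 (0.03, edgeR FDR 0.745) and GDAP1 (0.29, FDR 0.271) were lost there.

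For RIN, 10 of the 37 were higher and 14 lower, or 64.9% against 51.8% of all genes, with a median of -0.09 against -0.01. Without the 3 pigs of low RIN, 9 of 37 passed (1 higher and 8 lower), or 24.3% against 17.3% of all genes, and 8 of these were among the 24. With library size only, 30 passed (23 higher and 7 lower), or 81.1% against 63.8% of all genes, with a median of 0.23 against 0.30. Of the 24 genes 5 had the opposite sign (MFF, DNM2, IMMT, SAMM50 and PINK1).

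The counts of the separate lists are to be read against the same shares of all genes, 51.8% with all pigs, 17.3% without the 3 pigs of low RIN and 63.8% with library size only. Of 6 fission genes tested, 1 was higher and 4 were lower with RIN. Without the 3 pigs of low RIN 0 were higher and 3 lower, and with library size only 2 were higher and 1 lower. With all pigs MTFP1 was at -0.57, MIEF2, a receptor of DNM1L, at -0.52, and DNM2, a dynamin, at -0.21, while GDAP1 was at 0.45. MFF was among the 3 lower without the pigs of low RIN, so not all of MTFP1, MIEF2 and DNM2 passed there. Of 10 fusion genes, 4 were higher and 2 lower, and without the 3 pigs of low RIN 0 were higher and 2 lower, with all 4 higher calls lost. With library size only 7 were higher and 2 lower. The prohibitins PHB1 and PHB2, which form rings in the inner membrane, were lower at -0.57 and -0.43, and SLC25A46 was higher at 0.24 beside both mitofusins and the protease OMA1 at 0.16.

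Of 7 cristae genes, 1 was higher and 5 lower, but 0 and 1 without the 3 pigs of low RIN, and 3 and 2 with library size only. In that order 85.7%, 14.3% and 71.4% of the cristae genes passed, and the last 2 shares are near those of all genes. With all pigs the lower calls were led by the MICOS subunits MICOS13 at -0.84, CHCHD6 at -0.68 and APOO at -0.34, and by SAMM50, which inserts proteins into the outer membrane, at -0.27. Only 1 lower call was left without the 3 pigs of low RIN, so most of these did not pass there. Of 9 genes of ubiquitin ligases, deubiquitination and mitophagy, 3 were higher and 3 lower, with 1 and 2 without the 3 pigs of low RIN, and 6 and 2 with library size only. With all pigs the deubiquitinase USP30 was higher at 0.59, and its value without the 3 pigs of low RIN is not given here. The ligase MUL1 and the mitophagy receptor FKBP8 were lower at -0.60 and -0.55. MTFR1L, a relative of MTFR1, was higher at 0.13, and did not pass without the 3 pigs of low RIN (edgeR FDR 0.708). None of 3 transport genes passed.

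For FCR, MTFR1 is left out as chosen on this contrast. None of the other genes tested in these lists passed in edgeR, against 0% of all genes. Of the MTFR family, MTFR1L was at 0.05 per 0.1 of FCR (edgeR FDR 0.578).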

How the data were processed

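The deposited files hold whole read counts per gene. The authors trimmed the unstranded 100-base read pairs with Trimmomatic 0.39 and aligned them to Sscrofa11.1 (Ensembl annotation) with STAR 2.7.1a, which counted the pairs on single genes, so the counts carry no normalization. The unstranded column was used for all 41 pigs. Of the 25880 gene IDs, 14857 were paired with a symbol. Pairs on no single gene (19.1 to 30.1% per pig) stayed out of library sizes and tests.

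Breed, FCR, RIN, age and batch came from the labels. The joint model was fitted with edgeR 4.0.16 (quasi-likelihood, legacy form, TMM, filterByExpr, 11146 genes) in R 4.3.3, with Benjamini-Hochberg FDR over all genes and a threshold of 0.1. DESeq2 1.42.0, limma 3.58.1 with voom, other scalings, filters, covariates and left-out pigs were alternatives. Log2 CPM used a prior count of 2, and nearest genes were sought among genes with at least 5 counts in every pig. Correlations used 100000 permutations, or all of them for 9 pigs (Python 3.11.15, SciPy 1.17.1). Tests were two-sided. Of the steps, only the joint edgeR fit was tried on simulated data, for its FCR, RIN and breed terms. No pair of libraries was identical (lowest chi-squared per degree of freedom 18.2 over 820 pairs).

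The members and lists were chosen with earlier results of these data known. The text names every matched member, per list and term up to 4 genes past the threshold with the largest coefficient, the 5 genes nearest to MTFR1 and the nearest gene to each other member. A gene that the rule names is not reported here. OMA1 and genes singled out for their sign or for their cell type fall outside that rule. Gene positions came from RefSeq on the same build, and gene lengths were not used here.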

Additional observations from a re-analysis of the deposited data

How the results depend on the processing

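No paired analysis was possible because each pig is a sample of its own and the replicate numbers tie no pigs together. Of 6 genes, 1 passed for breed in the main fit, 3 with library size only (MFF then at -0.155, edgeR FDR 0.0935, OPA1 at -0.25, with 37.1% of all genes passing against 33.1%), 0 without a low-count filter (MTFR1 FDR 0.116), 0 with FCR left out, 2 without the 3 pigs of RIN 7 or below, and 0 to 1 with a pig left out. For RIN 3 passed, but 5 with library size only (MTFR1 then at 0.294 and MFF at 0.126, with 63.8% of all genes passing against 51.8%), 1 without the 3 pigs of RIN 7 or below (MFN2 then at -0.160), and 2 to 4 with a pig left out. OPA1, just short of the threshold for RIN in the main fit, passed in 7 of 11 other settings and without 23 of the 41 pigs left out in turn. Library size only moved the median coefficient of all genes from -0.002 to -0.18 for breed and from -0.01 to 0.30 for RIN. For FCR, jointly and within breed, the counts over the 5 genes other than MTFR1 stayed at 0 in all settings run, as did the counts for FCR by breed, and the joint MTFR1 coefficient ran from 0.22 to 0.31 (0.31 with library size only). Of 15 correlations, 4 passed in the main analysis, 7 on log2 CPM without adjustment, 1 without the 2 farthest pigs, 1 without the 3 pigs of RIN 7 or below, 0 within Landrace, 3 within Duroc, and 1, 3 and 2 within batches 2, 3 and 5. In batch 2, MTFR1 with OPA1 was at -0.215 and MFN1 with MFN2 at -0.0286. The cause of these shifts was not tested. The settings with FCR left out, with the 3 pigs of RIN 7 or below left out and within breed for correlations, and the product of RIN and breed, with and without those pigs, were chosen after seeing the data. Duroc had no pig with RIN below 7, so that setting gives no Duroc value, and levels per gene length were not run. Depth limits MTFR1, at 19 counts in the lowest library.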
